A study of Mus musculus with 18 samples.

Results

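Bone marrow progenitors with both the NUP98-HOXD13 transgene and a Setd2 deletion were compared with wild-type progenitors across genes not placed on a sex chromosome. A gene entered when edgeR's count filter kept it over the 12 RNA-seq libraries of the series and when it was not placed on X or Y. The count table lists 53946 genes. Of these, 16233 passed the filter, 492 of these lay on X or Y, and 15741 were left for the comparison. A chromosome was found for 14272 of them, and the other 1469 were counted but not named among the largest changes. Genes on X or Y may remain among these 1469.

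The KO libraries (n = 3) were made from HSPCs, hematopoietic stem and progenitor cells, of NHD13/Setd2 KO mice, which carry the NUP98-HOXD13 fusion (NHD13) and lost floxed Setd2 through Mx1-Cre. The WT libraries (n = 3) came from HSPCs of C57BL/6 mice, for which the labels name neither the transgene nor a floxed allele nor Cre. NHD13 libraries (n = 3), from HSPCs with the transgene and Setd2 flox/flox alleles, are given beside both where a gene is described, and C-Kit+ spleen libraries of leukemic mice (AML, n = 3) entered only the shared estimate of spread. All mice are labelled as C57BL/6, and the source of the 3 HSPC groups is bone marrow. The sources used here do not give the age of the mice, the inducing agent or whether WT mice received it. Nor do they say whether the 3 libraries of a group are 3 mice, so p-values reflect only the spread among these libraries, and that spread may be technical. The KO group differs from WT by the transgene, the floxed and deleted Setd2 alleles, Cre and, by the sex-linked reads given below, sex. This contrast therefore cannot assign a change to any of them. The test of KO against NHD13 is given for part of the named genes.

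NUP98-HOXD13 fuses a nucleoporin to the DNA-binding homeodomain of HOXD13. Mice with it develop a myelodysplastic syndrome that can turn into leukemia, and high HoxA-cluster expression is a known feature of NUP98-fusion leukemias. SETD2 is the methyltransferase that places trimethylation on lysine 36 of histone H3 (H3K36me3) along transcribed genes, a mark that the DNA methyltransferase DNMT3B binds. HSPCs express Kit and, in part, Cd34, Flt3 and Ly6a (Sca-1). As they mature toward neutrophils they first make primary (azurophil) granule proteins such as elastase and myeloperoxidase, then secondary granule proteins such as lactoferrin and cathelicidin.

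Depth was 22115101 to 23767776 counts per library in WT, 20436804 to 28127686 in KO and 22243002 to 24766705 in NHD13. The 10 most abundant genes took 6.90% to 7.16% of counts in WT, 9.23% to 10.02% in KO and 14.1% to 15.8% in NHD13. WT replicate 1 stood apart from the other WT libraries: against them its counts differed by 29.5 and 28.3 (chi-square divided by its degrees of freedom), compared with 3.91 between WT replicates 2 and 3 and 4.42 to 8.68 among the KO libraries. The 5 tested Y-linked genes summed to 122.7 to 134.3 CPM (counts relative to the tested-gene total of a library) in the KO libraries and to under 0.1 CPM in WT and NHD13, while Xist read 114.8 to 217.9 CPM in WT, 66.0 to 137 CPM in NHD13 and 0.0381 to 0.105 CPM in KO. Sex and the KO label therefore cannot be told apart, in the comparison with WT and in that with NHD13. Leaving out X and Y removes only those sex-linked genes whose chromosome was found.

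Setd2 (chr9:110532500-110618633, ENSMUSG00000044791) read 45.2, 43.9 and 37.2 CPM in WT, 34.4, 34.6 and 31.5 CPM in NHD13 and 33.1, 29.2 and 34.9 CPM in KO. KO was below WT by a log2 fold change of -0.38 ± 0.08 (SE; adjusted p = 0.00121), and every KO library was below every WT library. NHD13, with its floxed alleles in place, was also below WT (-0.33 ± 0.08), and the difference between KO and NHD13 was -0.05 ± 0.08 (adjusted p = 0.685). Whole-gene counts include reads from exons that a conditional allele leaves in place, so this value does not check the deletion.

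Against WT, 2703 genes rose in KO (17.2% of those tested) and 3140 fell (19.9%) at an adjusted p below 0.05 by edgeR's quasi-likelihood test with Benjamini-Hochberg adjustment. At 2-fold or more, 494 rose (3.14%) and 1436 fell (9.12%), so most of the large changes were decreases. The median log2 fold change over all 15741 genes was -0.02. With library totals alone in place of composition factors the median moved to -0.21. Of the changed genes, 18.0% were then increases in place of 46.3%. For this reason lists are read against the median of all genes. Their counts are read against the shares of all genes that rose (17.2%) and fell (19.9%). Genes that fell had a median of 8.05 CPM in WT, and genes that rose had a median of 33.4 CPM. At the extremes, 26 genes fell from at least 10 CPM to under 1 CPM and 13 rose from under 1 CPM to at least 10 CPM. The 2 groups compared lay 0.931 to 0.994 apart (root mean square log2 distance between libraries), against 0.454 to 0.466 among KO libraries and 0.428 to 0.507 among WT libraries.

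**Figure D1:**
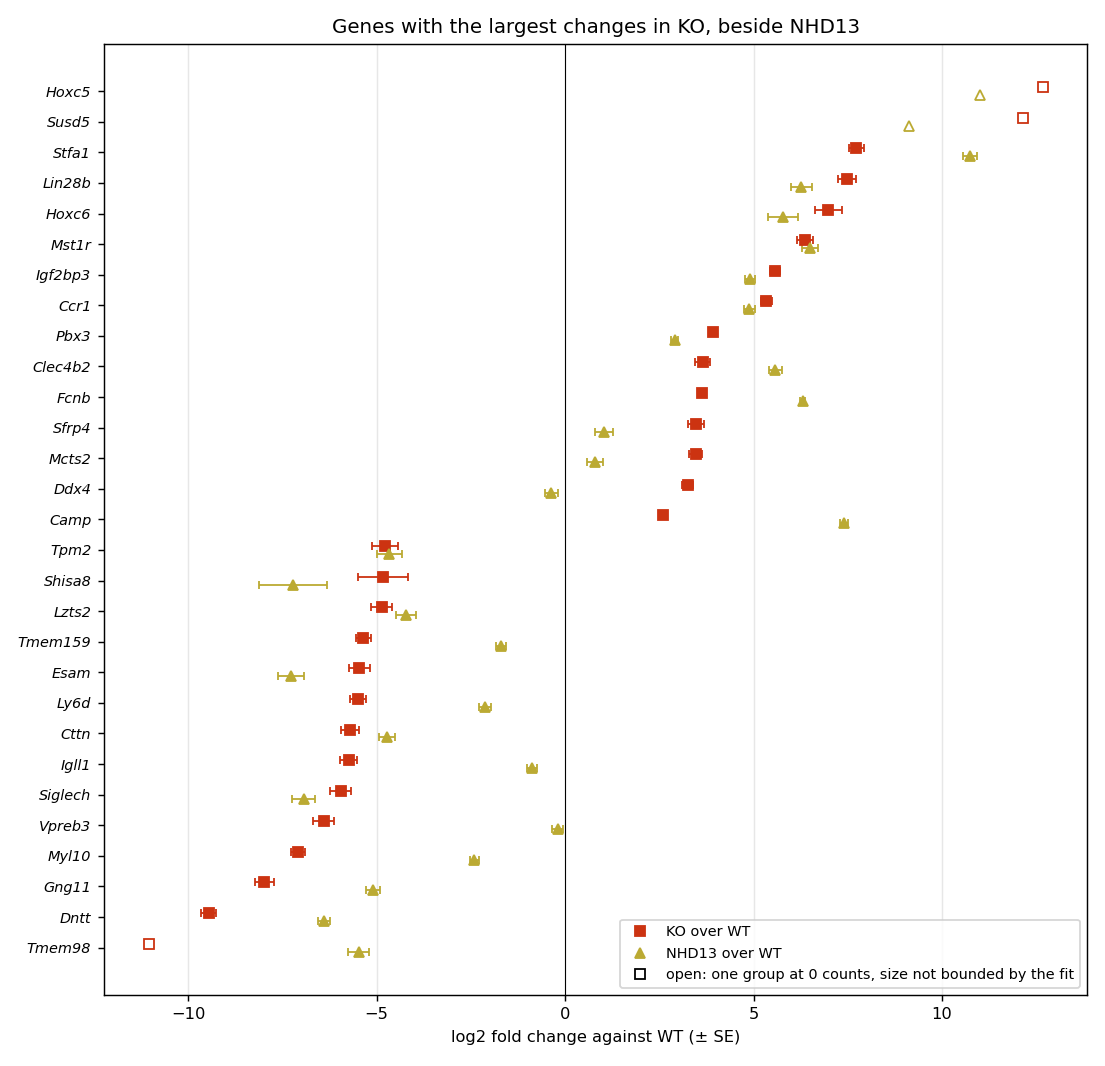
Log2 fold change against WT (x axis, ± SE) of the 15 genes with the largest rise and 14 of the 15 with the largest fall in KO, with the same genes in NHD13 beside them (squares KO, triangles NHD13). Open symbols mark comparisons in which a group had no count, where the fitted size is no measure. Ddx4, Sfrp4 and Mcts2 rose far more in KO than in NHD13, and Vpreb3 and Igll1 fell by over 5 in KO against -0.20 and -0.88 in NHD13.

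The label was checked first on the markers that define HSPCs. Kit, the stem cell factor receptor, read 102, 100.3 and 98.98 CPM in WT and 95.3, 104 and 105 CPM in KO. The groups overlapped, with a log2 fold change of 0.01 ± 0.06 (adjusted p = 0.889), but with library totals alone Kit passed as a fall. Cd34, a sialomucin of stem and progenitor cells, read 385, 399 and 379 CPM in WT and 143, 154 and 146 CPM in KO and fell 2.63-fold (-1.40 ± 0.06). Flt3, the receptor of lymphoid-primed progenitors, went from 118, 125 and 122 CPM to 37.6, 31.3 and 35.5 CPM (-1.81 ± 0.08). Ly6a went from 48.2, 46.9 and 52.1 CPM to 5.59, 5.14 and 5.41 CPM, a 9.13-fold fall (-3.19 ± 0.12, adjusted p = 6.18e-13). The KO and WT libraries did not overlap for the last 3 genes. NHD13 lay lower still, at 12.6 CPM for Cd34, 1.05 CPM for Flt3 and 2.64 CPM for Ly6a, and KO exceeded NHD13 by 3.54 ± 0.07, 5.03 ± 0.12 and 1.03 ± 0.16 on the log2 scale (adjusted p = 2.63e-17, 3.01e-16 and 3.54e-05). In bulk libraries fewer cells of a type and less RNA per cell cannot be told apart, which holds for every marker below.

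Neutrophil granule genes were higher in KO than in WT as a group, to a small extent for primary granule genes and to a larger one for secondary granule genes. Of 14 primary granule genes 12 rose and none fell, with a median log2 fold change of 0.61. Of 15 secondary granule genes 14 rose, 11 of them at least 2-fold, and none fell, with a median of 1.30. Of 20 late neutrophil genes 15 rose and 1 fell, with a median of 1.23. Over all genes the share that rose was 17.2% and the median -0.02.

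Elane (neutrophil elastase, chr10:79886312-79888216) read 9429, 9487 and 9293 CPM in WT and 18677, 18089 and 21232 CPM in KO, a 2.06-fold rise (1.04 ± 0.08, adjusted p = 5.43e-09). Prtn3, encoding proteinase 3, rose by 0.92 ± 0.07, Prss57, another serine protease of these granules, by 1.02 ± 0.07, and Mpo, myeloperoxidase, by 0.75 ± 0.09. Gfi1, a transcription factor needed for neutrophil differentiation, rose by 0.51 ± 0.13, and Cebpa, which directs progenitors toward granulocytes, read 8.8 CPM in WT and 8.98 CPM in KO (0.03 ± 0.10, adjusted p = 0.827). In every primary granule gene that rose the KO and WT means differed by at most 2.06-fold.

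Fcnb, encoding the granulocyte lectin ficolin B, had the steepest rise of the secondary granule genes. It read 24.1, 25.7 and 26.9 CPM in WT and 303, 322 and 318 CPM in KO, a 12.3-fold difference (3.62 ± 0.07, adjusted p = 2.09e-17). Camp, the cathelicidin antimicrobial peptide, went from 49.7, 61.6 and 63.5 CPM to 363, 342 and 350.2 CPM (6.04-fold, 2.59 ± 0.09). Ngp, neutrophilic granule protein, went from 144, 157 and 149.8 CPM to 477, 481 and 435 CPM (3.09-fold, 1.63 ± 0.09). No KO library overlapped WT in these 3 genes. Ltf (lactoferrin), Lcn2 (lipocalin 2) and Pglyrp1 (a peptidoglycan-binding protein) rose by 1.40 ± 0.09, 1.33 ± 0.10 and 1.32 ± 0.06. Cebpe, the transcription factor of secondary granule genes, rose from 28.02 ± 0.376 to 53.7 ± 4.27 CPM (SD, n = 3; 0.94 ± 0.07).

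S100a8 and S100a9, which encode the 2 chains of the alarmin calprotectin, rose together. S100a8 (chr3:90669071-90670034) read 290.5, 454 and 400.1 CPM in WT and 2339.6, 1889.7 and 1987 CPM in KO (5.43-fold, 2.44 ± 0.17, adjusted p = 4.49e-07). S100a9 (chr3:90692630-90695721) read 158, 248 and 237 CPM in WT and 1350.4, 1220.1 and 1198 CPM in KO (5.86-fold, 2.55 ± 0.17, adjusted p = 3.81e-07). The groups were far apart in both genes. Mmp9, a tertiary granule gelatinase, rose by 1.95 ± 0.16 and Retnlg, a resistin-like protein of neutrophils, by 1.56 ± 0.07.

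The stefin A genes on chromosome 16, which encode cysteine protease inhibitors, went from near silence to clear expression. Stfa1 read 0.155, 0.125 and 0.299 CPM in WT and 41.9, 38.7 and 44.4 CPM in KO (7.73 ± 0.20), Stfa2 averaged 0.0705 and 6.55 CPM, and Stfa3, with no WT count, was at least 131-fold higher in KO when WT is set to a floor of 3 counts for the whole group. These copies are alike in sequence and may share reads, so the split between them is uncertain. Not all late genes moved: Il1b, Padi4, Trem1 and Ccl6 had log2 fold changes between -0.15 and 0.20 and did not pass, and Clec4d, a C-type lectin receptor, fell by 0.57.

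The rises stopped short of the NHD13 levels for most of these genes. The 15 secondary granule genes summed to 817 to 864 CPM in WT, 2341 to 2479 CPM in KO and 37391 to 45735 CPM in NHD13, and the 14 primary granule genes to 34684 to 36983, 61150.2 to 64924 and 101776 to 111905 CPM. For single genes the test of KO against NHD13 gave -2.68 ± 0.06 for Fcnb, -4.81 ± 0.09 for Camp, -5.18 ± 0.10 for Ngp, -3.35 ± 0.18 for S100a8 and -0.91 ± 0.08 for Elane, each below 0 at an adjusted p of at most 1.82e-08. Ctsc, encoding cathepsin C, was an exception at 131 CPM in KO and 71.7 CPM in NHD13. The distance of KO from WT was 2.59 for Camp beside 7.40 in NHD13, and 1.04 for Elane beside 1.95 in NHD13.

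**Figure D2:**
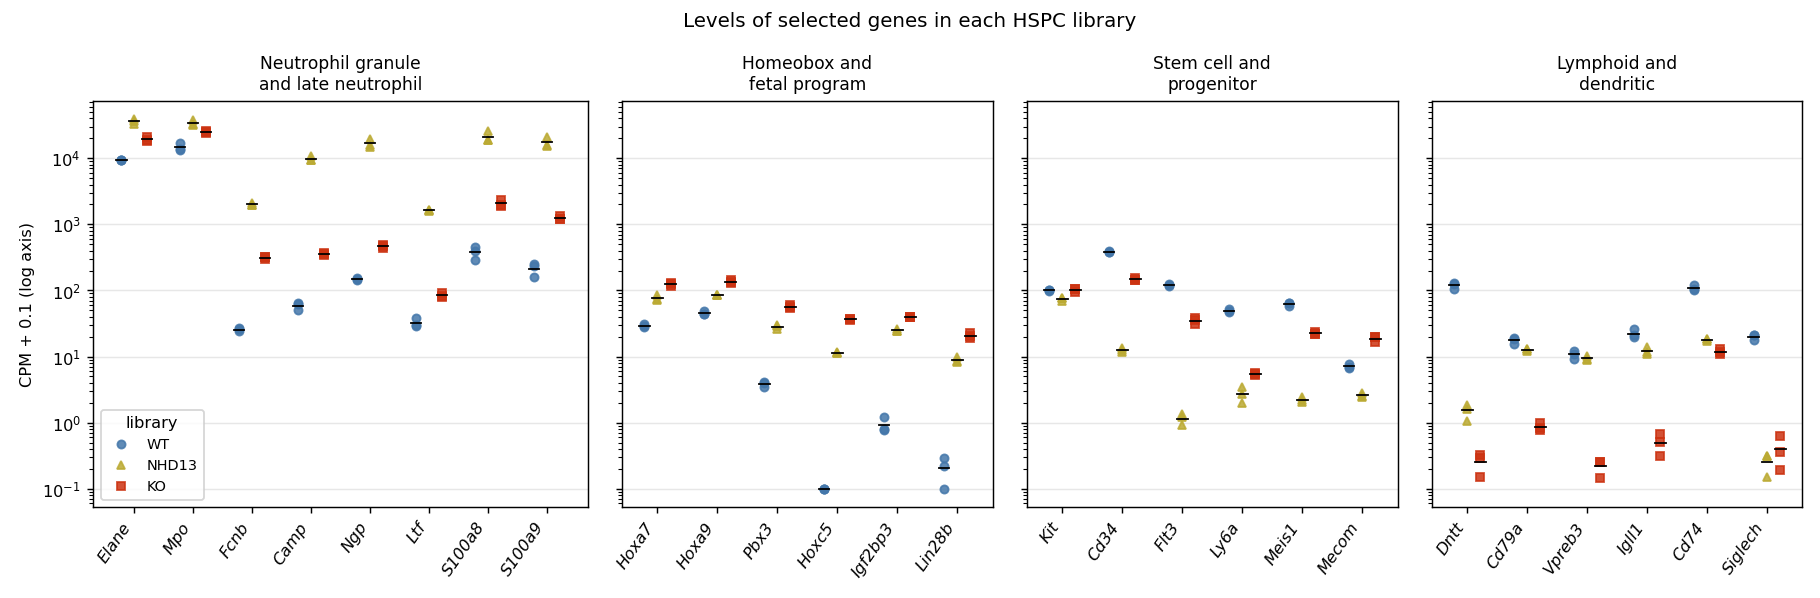
CPM + 0.1 on a log axis for 26 genes in the 3 WT (circles), 3 NHD13 (triangles) and 3 KO (squares) libraries, with group means as bars. KO libraries lie between WT and NHD13 for granule genes such as Camp and S100a8, above both for Hoxa7, Hoxa9, Pbx3, Hoxc5, Igf2bp3 and Lin28b, and lowest of the 3 groups for Dntt, Cd79a, Vpreb3, Igll1 and Cd74.

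Promoter methylation was read at the granule genes because it is the one other readout of the series that covers both KO and WT. The upstream bases of 4 of them are printed to show where CpG sites lie next to the start: each line gives the 250 bases before the annotated start (RefSeq, GRCm38.p6), 5′ to 3′ on the gene's strand, and capitals mark the CpG sites inside the regions of both methylation tables.
Camp: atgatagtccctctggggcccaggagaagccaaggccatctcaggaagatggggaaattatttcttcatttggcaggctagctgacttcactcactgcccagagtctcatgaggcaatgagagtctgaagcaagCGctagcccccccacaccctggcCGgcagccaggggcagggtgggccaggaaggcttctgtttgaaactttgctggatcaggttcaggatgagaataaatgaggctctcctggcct
Ngp: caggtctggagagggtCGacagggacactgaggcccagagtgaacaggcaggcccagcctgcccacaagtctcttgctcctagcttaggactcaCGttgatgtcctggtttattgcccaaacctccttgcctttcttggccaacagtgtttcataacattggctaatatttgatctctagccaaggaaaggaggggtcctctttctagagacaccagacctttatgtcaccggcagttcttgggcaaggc
S100a8: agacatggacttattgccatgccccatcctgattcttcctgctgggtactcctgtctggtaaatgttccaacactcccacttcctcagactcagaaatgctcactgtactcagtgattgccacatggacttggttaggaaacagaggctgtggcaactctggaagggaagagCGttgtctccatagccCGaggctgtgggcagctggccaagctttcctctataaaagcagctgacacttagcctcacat
Cd177: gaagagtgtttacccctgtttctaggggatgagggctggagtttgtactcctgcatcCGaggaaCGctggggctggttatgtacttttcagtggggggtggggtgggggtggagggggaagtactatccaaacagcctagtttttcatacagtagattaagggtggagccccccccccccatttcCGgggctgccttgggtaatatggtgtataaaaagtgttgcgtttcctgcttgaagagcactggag
The Camp window is chr9:109849457-109849706 on the minus strand, that of Ngp chr9:110419558-110419807 on the plus strand, that of S100a8 chr3:90668821-90669070 on the plus strand and that of Cd177, a neutrophil surface glycoprotein, chr7:24760312-24760561 on the minus strand. They hold 2, 3, 2 and 4 CpG dinucleotides, of which 2, 2, 2 and 3 lie in both regions. The methylation values are means over whole regions, which in the authors' deposited tables hold 16 and 8 CpG positions at Camp, 10 and 8 at Ngp, 35 and 28 at S100a8 and 8 and 6 at Cd177, and which reach past the printed bases except at Cd177. The shorter Cd177 region holds 3 CpG dinucleotides and is listed with 6 positions, so the authors' deposited tables appear to count both strands. Across 31396 annotated windows of the same length outside X and Y the median was 6, and 37.3% held 3 or fewer.

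In the authors' deposited table of regions that differ between the WT and NHD13 bisulfite libraries, and in the authors' deposited table for NHD13 and KO, overlapping regions touched the promoter window (here 300 bases, the 250 before the start and 50 after it) of 14 of the 523 listed or named genes that have one (2.68%), against 238 of 10432 of all genes compared (2.28%). For the 3 neutrophil lists it was 6 of 41 (14.6%). A region is in the authors' deposited table only because NHD13 differed there from the other library, so KO and WT were never compared directly, each value comes from 1 library, and the tables give no coverage.

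At Fcnb the authors' deposited tables list the same region, which lies after the start, with 90.1% mean methylation in WT, 47.0% in NHD13 and 82.3% in KO. At Cxcr2, a chemokine receptor of neutrophils, the authors' deposited tables again share one region, at 74.9% in WT, 49.9% in NHD13 and 73.5% in KO. In the authors' deposited tables overlapping but unequal regions read 84.1% in WT, 54.7% in NHD13 and 79.2% in KO at Camp, and 89.7%, 68.8% and 89.3% at Ngp. S100a8 read 74.9%, 33.8% and 62.4%, and Cd177 73.9%, 40.9% and 66.95%, in the authors' deposited tables and in the same order. In all 6 neutrophil genes the KO value lay nearer to WT than to NHD13 and at or below WT. Regions entered only where NHD13 differed from both WT and KO, so part of this pattern was set by the choice of regions. The transcripts of the same genes were above WT (1.13 ± 0.12 for Cd177 and 0.56 ± 0.12 for Cxcr2).

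Tmem98, a membrane protein gene with no count in KO, had the same order in the authors' deposited tables, at 43.5% in WT, 23.1% in NHD13 and 41.2% in KO. Some other genes had another order. Except for the Apoe values, their WT and KO values come from overlapping but unequal regions. In the authors' deposited tables the regions at Emcn, encoding endomucin, read 11.9% in WT, 53.99% in NHD13 and 77.1% in KO. Those at Tpm2, a tropomyosin gene, read 25.8%, 53.01% and 78.98% in the authors' deposited tables. Both transcripts were near 0 in KO, but Tpm2 averaged 0.39 CPM in NHD13 too, beside 0.38 CPM in KO. Regions at Apoe had the same order in the authors' deposited tables, for example 17.4%, 35.8% and 54.4% in a region shared by both. The Apoe transcript fell by only 0.73. Regions at Hoxa2 read 35.2%, 84.5% and 31.2% and those at Hoxb4 32.1%, 77.8% and 33.5% in the authors' deposited tables, with Hoxa2 and Hoxb4 transcripts at 0.666 and 0.516 CPM in KO and neither passing the test against WT (adjusted p = 0.054 and 0.0928).

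**Figure D3:**
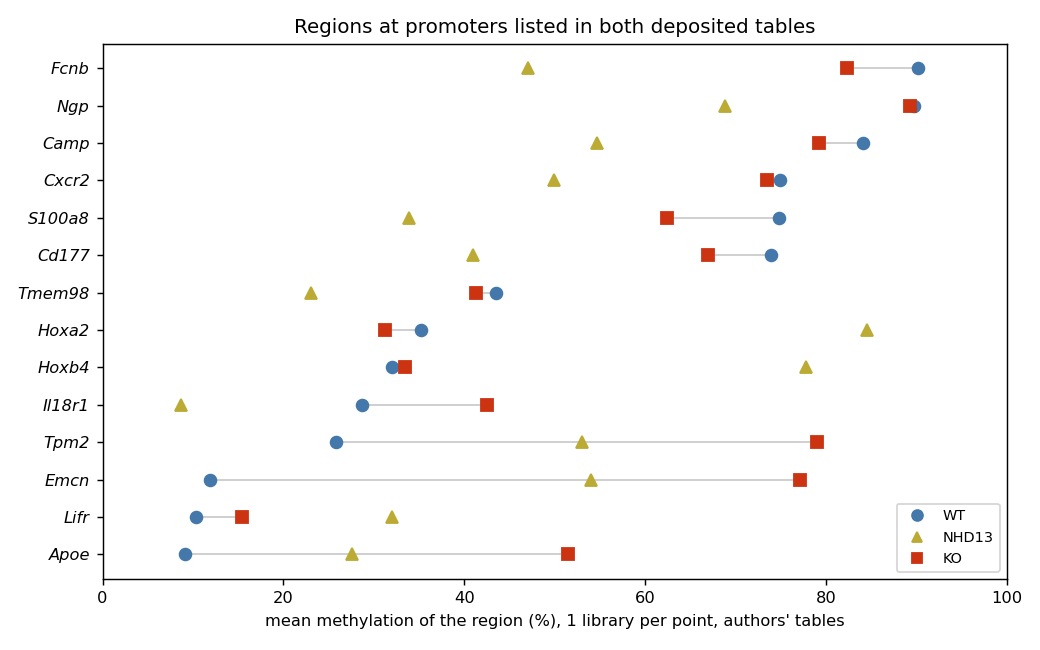
Mean methylation in percent (x axis) of the regions at the promoters of 14 genes in the authors' deposited tables, 1 bisulfite library per symbol (circles WT, triangles NHD13, squares KO), with a grey line from WT to KO. At the 6 neutrophil genes WT and KO lie close together above NHD13, for example 90.1% and 82.3% against 47.0% at Fcnb. Regions are shown only where NHD13 differed from both WT and KO. Except at Fcnb, Cxcr2 and Tmem98, the WT and KO values shown come from overlapping but unequal regions.

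Hoxa7, Hoxa9, several HoxC genes and the Hox cofactor Pbx3 were higher in KO than in WT and higher than in NHD13 too, while the cofactor Meis1 was lower than in WT. Hox proteins set positional identity and, in blood, keep progenitors self-renewing; they bind DNA with Pbx and Meis partners. Of 47 listed genes 24 passed the count filter, 14 of these rose, 13 of them at least 2-fold, and 3 fell. The median was 1.32, and among all genes 17.2% rose and 19.9% fell.

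Hoxa9 (chr6:52223097-52227370), which drives self-renewal in many leukemias, read 44.5, 44.3 and 48.2 CPM in WT, 83.9, 84.9 and 84.6 CPM in NHD13 and 142, 128 and 136 CPM in KO. KO exceeded WT by 1.57 ± 0.06 (adjusted p = 8.51e-13) and NHD13 by 0.68 ± 0.06 (adjusted p = 3.25e-08), with no overlap among the 3 groups. Its neighbour Hoxa7 (chr6:52215623-52218573) followed the same order at 31.3, 27.6 and 29.3, 72.7, 74.8 and 85.3 and 117, 131 and 127 CPM, with KO above WT by 2.09 ± 0.08 and above NHD13 by 0.69 ± 0.07. Hoxa3, Hoxa4, Hoxa5 and Hoxa10 rose by 1.73 ± 0.37, 1.27 ± 0.41, 1.38 ± 0.14 and 0.93 ± 0.11. Hoxa2 and Hoxa6 had log2 fold changes of 1.13 and 1.14 at low counts and did not pass.

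The HoxC cluster on chromosome 15 was at or next to 0 in WT. Hoxc5 (chr15:103014008-103017429) had no count in any WT library, read 11.3, 11.5 and 11.4 CPM in NHD13 and 35.4, 37.2 and 36.5 CPM in KO, and was at least 889-fold higher in KO than in WT. Hoxc4, also without a WT count, averaged 9.74 ± 1.3 CPM in KO (SD, n = 3; at least 238-fold higher), and Hoxc8 averaged 3.51 ± 0.344 CPM (at least 85.7-fold). Hoxc6 read 0, 0 and 0.257 CPM in WT and 10.9, 10.9 and 11.5 CPM in KO (6.99 ± 0.35). Its fitted value rests on 6 WT counts and was 10.96 without WT replicate 3, when WT has no count, and 6.40 without WT replicate 1. KO exceeded NHD13 in each of these 4 genes, by 1.67 ± 0.09 for Hoxc5, 1.82 ± 0.16 for Hoxc4, 1.98 ± 0.30 for Hoxc8 and 1.20 ± 0.19 for Hoxc6. Per length, KO levels were 10.9 ± 0.309 FPKM for Hoxc5, 22.5 ± 1.08 FPKM for Hoxa9 and 40.3 ± 2.38 FPKM for Hoxa7 (SD, n = 3), so the HoxC gene stayed below the HoxA genes. HoxC genes lie close together and have overlapping transcripts, and the sources used here do not say if reads were counted by strand, so the split between them is uncertain.

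Pbx3 (chr2:34171457-34372045) read 3.36, 4.07 and 3.85 CPM in WT, 28.9, 29.5 and 26.1 CPM in NHD13 and 60.3, 53.9 and 57.05 CPM in KO (15.2-fold over WT, 3.92 ± 0.09, and 1.02 ± 0.08 over NHD13). Meis1, a partner of Hoxa9 in stem cells, averaged 62.7 ± 3.75 CPM in WT, 2.11 ± 0.184 in NHD13 and 22.2 ± 0.903 in KO (SD, n = 3), a fall of 2.82-fold from WT beside a difference of 3.40 ± 0.12 from NHD13.

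Lin28b and Igf2bp3, which are active in fetal hematopoiesis, rose as well. Lin28b, an RNA-binding protein that blocks let-7 maturation, read 0.193, 0.125 and 0 CPM in WT, 8.53, 9.81 and 8.16 CPM in NHD13 and 22.3, 20.1 and 18.98 CPM in KO (7.48 ± 0.24 over WT and 1.21 ± 0.13 over NHD13). The first value rests on 8 WT counts and was 8.22 without WT replicate 1 and 6.96 without WT replicate 3. Igf2bp3, an mRNA-binding protein of fetal tissue and a known let-7 target, read 0.696, 0.665 and 1.11, 24.03, 24.3 and 26.1 and 39.5, 39.6 and 39.3 CPM in the same order (5.58 ± 0.13 over WT, 0.67 ± 0.09 over NHD13). In both genes the 3 groups were fully separate. Hmga2, another let-7 target, went the other way, from 7.38 CPM in WT to 4.24 CPM in KO (-0.79 ± 0.19).

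These genes belong to a list of 36 leukemia-associated genes, of which 15 rose and 11 fell (9 and 13 with library totals alone). Among all 15741 genes 17.2% rose and 19.9% fell, and with library totals alone 1201 rose and 5468 fell. The median of the list was 0.12, or 0.07 with genes at 0 set to their bound. Eya1, a transcriptional coactivator, rose by 1.47 ± 0.08 against WT, although NHD13 lay below WT (-0.39 ± 0.09). Nkx2-3, a homeobox gene, read 10.4, 8.6 and 8.77 CPM in WT and had no count in KO, at least 204-fold lower. Bcl2, the anti-apoptotic factor, fell by 1.21, Myc by 0.35 and Mn1, a cofactor overexpressed in some leukemias, by 4.20.

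Stem cell genes were lower in KO as a group, with a few exceptions that rose. Of 33 genes 23 fell, 13 of them at least 2-fold, and 4 rose, against 19.9% and 17.2% of all genes. The median was -0.79. Summed over the list, KO libraries read 2759.9 to 2917 CPM, WT 3971 to 4338 CPM and NHD13 972 to 979 CPM.

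Esam, an adhesion molecule of long-term stem cells, read 10.9, 11.9 and 11.8 CPM in WT and 0.263, 0.381 and 0.0949 CPM in KO (-5.47 ± 0.28), Tek, the angiopoietin receptor, averaged 7.69 and 0.1997 CPM, Emcn 9.38 and 0.0728 CPM, and Robo4 3.39 and 0.0475 CPM. Endothelium also expresses these 4 genes. The endothelial markers Pecam1 and Eng did not pass (-0.02 ± 0.08 and 0.12 ± 0.09), and Kdr, the VEGF receptor, fell from 1.93 ± 0.711 to 0.66 ± 0.181 CPM (SD, n = 3). Of the 11 stroma and endothelium genes tested 3 fell and none rose, against 19.9% and 17.2% of all genes. The part of these genes in the result was not tested.

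Hlf, a stem cell transcription factor, averaged 26.5 ± 1.49 CPM in WT and 9.62 ± 0.495 in KO (SD, n = 3; -1.46 ± 0.11), and Ifitm1 537 and 129 CPM. Procr (EPCR) and Angpt1 (angiopoietin 1) fell by less, 0.83 and 0.77 on the log2 scale. The 4 that rose were Mecom (EVI1; 7.02 to 18.5 CPM, 1.40 ± 0.11), Prdm16 (1.42 ± 0.13), Slamf1 (CD150; 1.01 ± 0.15) and Prom1 (0.99 ± 0.13). Mecom and Prdm16 are related zinc-finger regulators of stem cell maintenance. Gata2 read 116 CPM in KO and 119 CPM in WT (-0.04 ± 0.16, adjusted p = 0.877), while NHD13 read 14.97 CPM and KO exceeded it by 2.95 ± 0.18. Runx1 and Mllt3 did not pass either (-0.15 ± 0.08 and 0.02 ± 0.10).

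B-lineage genes fell nearly throughout. Of 23 tested 21 fell, 19 of them at least 2-fold, and none rose. The median was -3.61 beside -0.02 for all genes, of which 19.9% fell and 17.2% rose. Dntt, the terminal transferase of early lymphoid progenitors, read 107, 126 and 129.7 CPM in WT, 0.972, 1.78 and 1.53 CPM in NHD13 and 0.0527, 0.228 and 0.19 CPM in KO (-9.46 ± 0.21 against WT, -3.07 ± 0.38 against NHD13).

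The pro-B genes separated KO from NHD13 as well as from WT. Vpreb3, of the surrogate light chain family, read 9.24, 10.8 and 12.1 CPM in WT, 9.93, 9.18 and 8.8 CPM in NHD13 and 0.158, 0.152 and 0.0475 CPM in KO, so that NHD13 overlapped WT (-0.20 ± 0.15, adjusted p = 0.283) and KO lay below both (-6.41 ± 0.29 and -6.21 ± 0.29). Igll1, the surrogate light chain lambda 5, read 20.9, 19.7 and 25.8, 11.5, 10.7 and 13.8 and 0.211, 0.419 and 0.57 CPM in WT, NHD13 and KO (-5.75 ± 0.23 against WT, -4.87 ± 0.24 against NHD13). Cd79a, a signalling chain of the B cell receptor, read 18.6, 15.4 and 18.9, 12.9, 12.95 and 11.9 and 0.738, 0.875 and 0.664 CPM (-4.51 ± 0.17 and -4.02 ± 0.17). The transcription factor Ebf1, which commits cells to the B lineage, averaged 3.5, 2.16 and 0.1002 CPM, and Il7r, the interleukin 7 receptor, 3.46, 1.1 and 0.0921 CPM. Pax5 had 1 count in the 3 KO libraries together.

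T and NK cell genes showed a similar balance, with 15 of 19 down and 2 up (median -2.17), against 19.9% and 17.2% of all genes. Gata3 averaged 3.84 ± 0.665 CPM in WT and 0.0634 ± 0.11 in KO (SD, n = 3), and Lck, a T cell kinase, 13.2 and 3.23 CPM (-2.02 ± 0.16). Cd7 fell by 3.16. One member moved strongly the other way: Gzmb, the cytotoxic protease granzyme B, read 20.9, 21.9 and 27.2 CPM in WT, 16.8, 17.2 and 14.7 CPM in NHD13 and 112, 119 and 115 CPM in KO (4.94-fold over WT, 2.30 ± 0.13), beside Prf1 at 0.218 CPM and Ncr1 at 0.0461 CPM in KO. The list's sum was 1069.7 to 1090.2 CPM in WT and 1265 to 1313 CPM in KO, nearly all of it from Nkg7, a granule membrane protein (989 and 1137 CPM).

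Antigen presentation and dendritic genes fell too, in 21 of 24 with none up (median -1.83), against 19.9% and 17.2% of all genes. Siglech, a lectin of plasmacytoid dendritic cells, read 17.5, 20.9 and 21.1 CPM in WT and 0.263, 0.533 and 0.0949 CPM in KO (-5.95 ± 0.28, or -6.76 without KO replicate 2), and Ly6d, of lymphoid progenitors, 18.8, 23.2 and 26.2 and 0.58, 0.533 and 0.38 CPM (-5.50 ± 0.22). The class II gene H2-Eb1 went from 25.1 ± 1.97 to 2.37 ± 0.517 CPM and the invariant chain gene Cd74 from 110.1 ± 10.5 to 11.7 ± 1.05 CPM (SD, n = 3; -3.22 ± 0.08). The difference between KO and NHD13 did not pass for H2-Eb1 (-0.09 ± 0.16, adjusted p = 0.71) or Siglech (0.99 ± 0.62, adjusted p = 0.222).

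Erythroid genes rose moderately. Of 34 tested 22 rose and 4 fell (median 0.58), and of 23 heme and iron genes 18 rose and 2 fell (median 0.47). Among all genes 17.2% rose and 19.9% fell. Rhag, the Rh-associated glycoprotein, read 38.05, 36.3 and 36.2 CPM in WT and 104, 111 and 105 CPM in KO (2.89-fold, 1.53 ± 0.08). Rhd, Ermap (an erythroid membrane protein) and the globin gene Hba-a1 rose by 1.14 ± 0.08, 1.03 ± 0.08 and 0.98 ± 0.08, and Klf1, the erythroid master transcription factor, by 0.79 ± 0.07.

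On the heme pathway Cpox (coproporphyrinogen oxidase) read 97.2, 89.8 and 88.2 CPM in WT and 195, 191 and 196 CPM in KO (1.08 ± 0.07), and Alas1, the housekeeping enzyme of the first step, rose by 0.87 ± 0.06. Blvrb, a biliverdin reductase, rose by 1.03 ± 0.06. The erythroid-specific Alas2 and the factor Gata1 lie on X and were left out. For Rhag, Rhd, Ermap and Hba-a1 the difference between KO and NHD13 was 0.09 ± 0.08, -0.15 ± 0.07, -0.08 ± 0.08 and -0.16 ± 0.08, and none passed (adjusted p = 0.401, 0.126, 0.45 and 0.117), which does not show that the levels are equal. The 4 that fell were Lmo2, Nfe2, Trim58 and Hbb-bt, the last 1 of 2 near-identical beta globin genes whose other copy, Hbb-bs, rose by 0.50 ± 0.11, so their split is uncertain.

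Megakaryocyte genes were mixed, with 3 up and 10 down of 20 (median -0.37), against 17.2% and 19.9% of all genes. The platelet chemokine Pf4 read 131, 162 and 169.8 CPM in WT, 29.05, 27.6 and 27.6 CPM in NHD13 and 348, 345 and 355 CPM in KO, so KO was above WT (1.18 ± 0.08) and NHD13 below it (-2.46 ± 0.08). Ppbp, another platelet chemokine and also on chromosome 5, rose by 1.99 ± 0.24. Selp, Itga2b and Thbs1 fell by 1.86, 1.03 and 1.54, while Vwf and Fli1 did not pass (-0.06 ± 0.16 and -0.03 ± 0.07).

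Mast cell, basophil and eosinophil genes split as well (10 up, 5 down of 22, or 8 and 10 with library totals alone). Over all genes 17.2% rose and 19.9% fell. The basophil proteases Prss34 and Mcpt8 fell from 114 ± 12.5 to 17.3 ± 3.61 CPM and from 104 ± 7.5 to 26.8 ± 2.1 CPM (SD, n = 3), and Fcer1a, the IgE receptor chain, read 4.95, 4.94 and 4.79 CPM in WT and had no count in KO (at least 108-fold lower). Rises were seen for the mast cell chymase Cma1 (2.04 ± 0.23) and Cd200r3 (3.07 ± 0.26). Ms4a2, the beta chain of the same IgE receptor, rose by 0.50 ± 0.12, and Cpa3 did not pass (-0.24 ± 0.09).

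Among monocyte and macrophage genes 7 of 24 rose and 10 fell (median -0.20), against 17.2% and 19.9% of all genes. Ccr2, a chemokine receptor of monocytes, read 27.2, 30.6 and 26.9 CPM in WT, 12.1, 11.9 and 10.4 CPM in NHD13 and 85.8, 86.8 and 76.1 CPM in KO (1.55 ± 0.08), Cd68 rose by 1.27 ± 0.07 and Ly6c2 by 1.17 ± 0.10. C1qa, C1qb and C1qc, the complement C1q chains, fell by 2.38, 2.10 and 2.22. NHD13 was below WT for Ccr2 (-1.30 ± 0.09) and Cd68 (-1.10 ± 0.08), so KO and NHD13 lay on opposite sides of WT, with KO above NHD13 by 2.85 ± 0.09 and 2.37 ± 0.08.

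Of 36 cytokine and growth factor receptors 9 rose and 12 fell (17.2% and 19.9% of all genes did), with a median of -0.16. Ccr1, a receptor of myeloid chemokines, read 1.43, 2.7 and 1.92 CPM in WT, 60.9, 65.6 and 52.4 CPM in NHD13 and 87.95, 82.8 and 73.9 CPM in KO (40.5-fold over WT, 5.34 ± 0.15). Ifngr1, an interferon gamma receptor chain, rose by 0.75 ± 0.05, the GM-CSF receptor chain Csf2ra by 0.78 ± 0.13 and the erythropoietin receptor Epor by 0.98 ± 0.12. Il1r1, the interleukin 1 receptor, fell from 9.95 ± 1.12 to 0.94 ± 0.173 CPM (SD, n = 3; -3.40 ± 0.19).

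Several of the largest rises belong to no list. Susd5, a sushi-domain membrane protein, had no WT count, 3.19, 3.04 and 3.16 CPM in NHD13 and 24.8, 24.96 and 26.1 CPM in KO, at least 618-fold above WT and 3.01 ± 0.13 above NHD13. Mst1r, the RON receptor tyrosine kinase, read 0.425, 0.332 and 0.342 CPM in WT and 29.5, 36.8 and 25.5 CPM in KO (6.36 ± 0.21), with NHD13 at 36.8, 28.9 and 35.7 CPM and no difference from it passing the test (-0.14 ± 0.13, adjusted p = 0.394). Sfrp4, a secreted Wnt antagonist, read 0.889, 0.872 and 1.37 CPM in WT, 2.38, 2.36 and 1.68 CPM in NHD13 and 12.01, 12.5 and 10.1 CPM in KO (3.47 ± 0.20). Clec4b2, a C-type lectin, rose by 3.65 ± 0.19, and Mcts2, an intronless copy of Mcts1 that may share reads with it, by 3.46 ± 0.17.

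Among the largest falls outside the lists, Tmem98, a membrane protein gene, read 11.1, 10.6 and 13.7 CPM in WT and had no count in KO, at least 261-fold lower, with 15 counts in the 3 NHD13 libraries. Gng11, a G protein gamma subunit, read 22.7, 25.4 and 25.02 CPM in WT and 0.158, 0.0761 and 0.0475 CPM in KO (-7.99 ± 0.25). Myl10, a myosin light chain, went from 43.2, 40.998 and 48.2 CPM to 0.369, 0.304 and 0.285 CPM (-7.10 ± 0.19), with NHD13 between at 9.88, 7.29 and 7.81 CPM. Cttn, the actin-binding cortactin, fell by 5.71, Tmem159 by 5.36, Lzts2 by 4.86 and Tpm2 by 4.78. Shisa8 read 19.9, 6.36 and 7.01 CPM in WT, with replicate 1 highest, and 0.0527, 0.685 and 0.332 CPM in KO, a fall by 4.82 (-4.09 without WT replicate 1 and -5.74 without KO replicate 2).

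Genes of mitosis rose in KO, while most S phase genes did not pass. Of 26 G2 and M phase genes 21 rose and none fell (median 0.54), while of 27 S phase genes 5 rose and none fell (median 0.01). Over all genes 17.2% rose and 19.9% fell, so the share of S phase genes that rose was near that of all genes. The difference between the lists was not tested. Ube2c, the ubiquitin-conjugating enzyme of the anaphase-promoting complex, read 111, 127 and 132 CPM in WT and 288, 279 and 311 CPM in KO (2.38-fold, 1.25 ± 0.07). Kif11, a spindle motor, and Bub1b, a checkpoint kinase, rose by 0.81 ± 0.06 and 0.79 ± 0.07. Rrm2, a ribonucleotide reductase subunit, rose by 0.36 ± 0.05, and Pcna and Mcm2 did not pass (0.03 ± 0.07 and 0.07 ± 0.07). With library totals alone 1 S phase gene rose and 8 fell, so the small values of that list depend on the scaling.

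Cytosolic ribosomal protein genes rose slightly, 49 of 73 with 1 down (median 0.35), against 17.2% and 19.9% of all genes. With library totals alone 20 rose. The 73 genes summed to 55073 to 74301 CPM in WT and 81485 to 89493 CPM in KO, so the WT libraries themselves differed widely. Rps19, Rpl41 and Rps29 rose by 0.48 ± 0.08, 0.54 ± 0.08 and 0.62 ± 0.10. WT replicate 1 was the lowest WT library in each of them. For Rps19 it read 1935 CPM beside 2477 and 2480 CPM in the other WT libraries, and KO read 3222, 2972 and 3399 CPM. Rpl29, with many processed copies that can take its reads, was the 1 that fell, from 474, 572 and 581 CPM to 138, 132 and 152 CPM (-1.95 ± 0.08). Of 12 mitochondrially encoded genes only mt-Cytb passed (0.45 ± 0.11), and it no longer passed without WT replicate 1 (0.42, adjusted p = 0.0568).

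Interferon response genes leaned down, 18 of 38 with 4 up (median -0.31), against 19.9% and 17.2% of all genes. Mx1-Cre itself is induced through this pathway. Ifitm3, an antiviral membrane protein, fell from 713 ± 22.3 to 386 ± 2.39 CPM (SD, n = 3; -0.88 ± 0.05) and Rtp4 by 0.83. The chemokine Cxcl10 rose from 37.5 ± 4.1 to 89.8 ± 1.14 CPM (1.26 ± 0.08), and Oasl1 rose by 1.10 ± 0.10. The endogenous Mx1 gene read 1.79 CPM in WT and 1.26 CPM in KO (-0.49 ± 0.23, adjusted p = 0.111), and Irf7 did not pass (-0.07 ± 0.11). The number that rose was 2 without WT replicate 3 and 2 without KO replicate 3.

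Over all genes 17.2% rose and 19.9% fell, with a median of -0.02. Of 25 p53 response genes 4 rose and 7 fell (13 with library totals alone), with a median of -0.05. Pmaip1 (NOXA) rose by 1.74 ± 0.10 and Perp by 0.91 ± 0.12. Sesn1 fell by 0.61, and Cdkn1a (p21) read 162 CPM in WT and 167 CPM in KO (0.04 ± 0.08, adjusted p = 0.709). NHD13 was at 34.2 CPM for Cdkn1a, and KO exceeded it by 2.29 ± 0.09. Of 27 immediate early and heat shock genes 3 rose and 8 fell, among them Dusp1 (-0.58 ± 0.07) and Fos (-0.45 ± 0.09); 6 rose without WT replicate 1. Of 26 genes of the TLR4 and NF-kappaB response, through which calprotectin signals, 5 rose and 5 fell (1 and 10 with library totals alone). These counts were near the shares of all genes (17.2% rose and 19.9% fell), and the median was -0.04. The chemokines Ccl4 and Ccl3 were down by 1.19 and 0.82, and Nfkbia was up by 0.29 ± 0.07. Tlr4 read 3.43 CPM in WT and 2.87 CPM in KO (-0.25 ± 0.19, adjusted p = 0.338). The number of this list that rose was 3 without WT replicate 1, without KO replicate 2 or without KO replicate 3.

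Enzymes and readers of H3K36 methylation, DNA methylation and Polycomb counted 7 up and 14 down of 41 (median -0.12). Over all genes 17.2% rose and 19.9% fell, so the share that rose was near that of all genes. The number that fell was 9 without KO replicate 1. The Polycomb gene Pcgf2 fell by 2.75, from 1.24 ± 0.559 to 0.17 ± 0.129 CPM (SD, n = 3), and Tet1 was the other member down at least 2-fold. Nsd1, which places dimethylation on H3K36, fell from 72.2 ± 2.36 to 42.01 ± 0.462 CPM (SD, n = 3; -0.78 ± 0.07), Zmynd11, a reader of H3K36me3, by 0.37 and Ash1l, another H3K36 methyltransferase, by 0.38. Tet1, a methylcytosine oxidase, averaged 20.8 ± 1.03 CPM in WT and 9.81 ± 1.07 in KO (-1.08 ± 0.12). The de novo methyltransferases Dnmt3a and Dnmt3b rose by 0.39 ± 0.12 and 0.33 ± 0.08, and both were above NHD13 (0.83 ± 0.12 and 1.48 ± 0.09). Kdm4a, a demethylase of H3K9 and H3K36, rose by 0.86 ± 0.15. Dnmt1, Ezh2 and Suz12 did not pass (0.08 ± 0.11, -0.01 ± 0.07 and 0.11 ± 0.08).

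Of 25 glycolysis and hypoxia genes 10 rose and 6 fell (median 0.09), against 17.2% and 19.9% of all genes. With library totals alone 2 rose and 10 fell. Eno1, the glycolytic enolase, rose by 0.52 ± 0.09, while the hypoxia-responsive Ndrg1 fell from 34.4 ± 3.87 to 8.9 ± 1.33 CPM (SD, n = 3). Of 12 imprinted growth regulators 6 fell and 1 rose: Sgce went from 8.89 ± 0.686 to 0.313 ± 0.17 CPM and Grb10 from 10.9 ± 1.08 to 3.36 ± 0.477 CPM, and Igf2r, the receptor that clears IGF2, rose from 1.41 ± 0.185 to 4.09 ± 0.447 CPM.

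**Figure D4:**
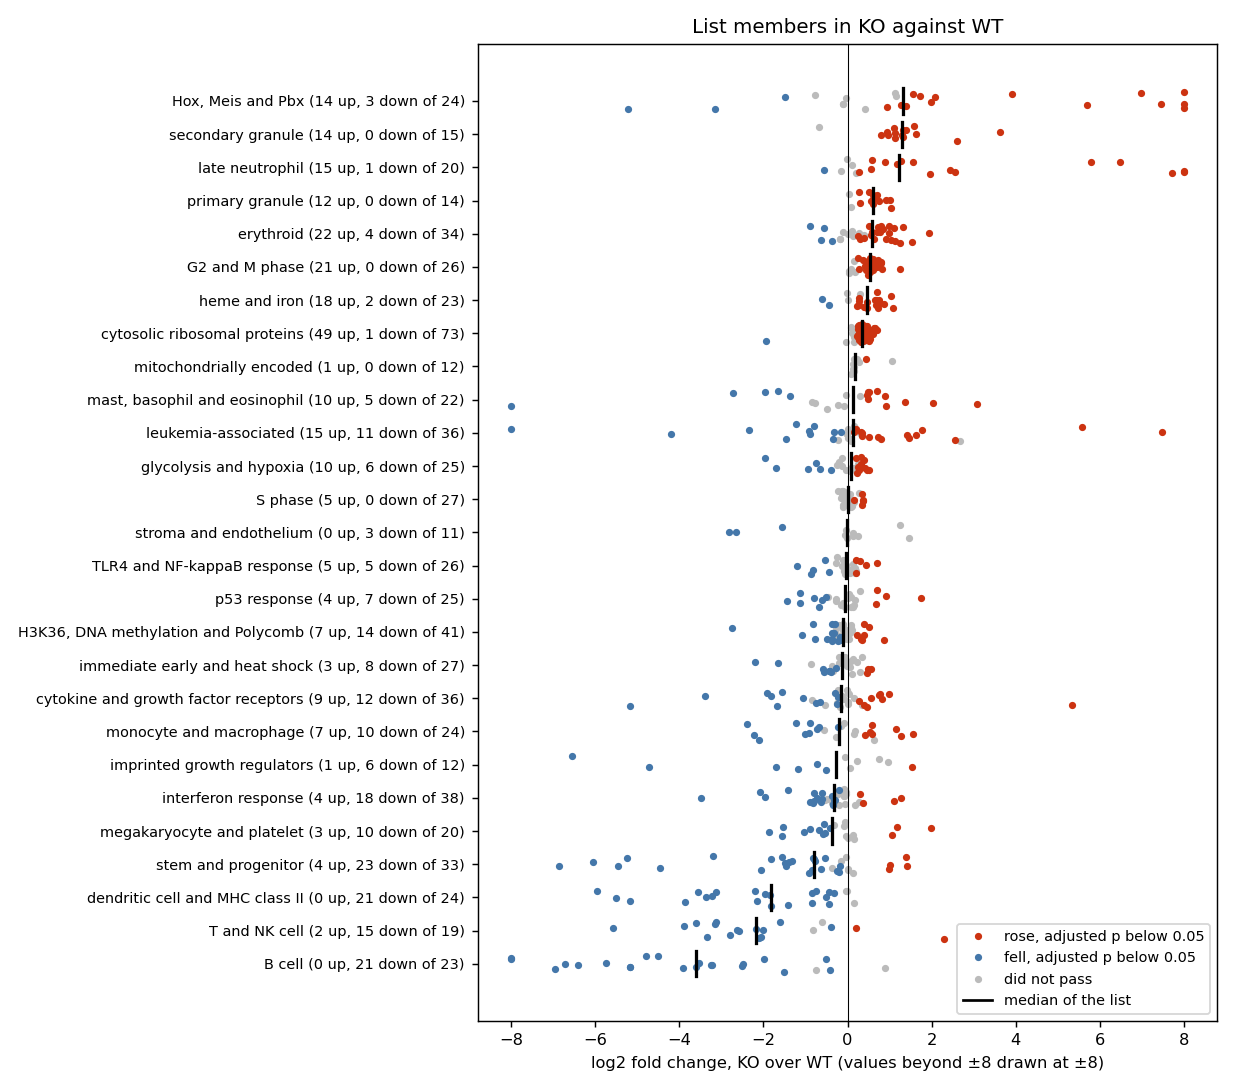
Log2 fold change of KO over WT (x axis; values beyond ±8 drawn at ±8) for every tested member of 27 gene lists, red where the gene rose, blue where it fell and grey where it did not pass, with a black bar at the median of the list. B cell (-3.61), T and NK cell (-2.17) and dendritic genes (-1.83) lie lowest, and the Hox list (1.32) and the secondary granule (1.30) and late neutrophil (1.23) lists highest.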

How the data were processed

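RNA-seq of 12 libraries (4 groups of 3) and regions from 3 bisulfite libraries were used, out of 18 samples in the series. Groups came from the sample titles. The members, gene lists and rule for named genes were chosen with earlier results of these data known.

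The authors deposited raw gene counts in a single table, in which 20286 genes had no count. The submitters' processing notes name HISAT2 2.0.5, HTSeq 0.9.1, DESeq2 1.22.2, Bismark 0.19.0 and the mm10 build. The authors' deposited FPKM values equal count over gene length and column total, so they carry no composition correction. Region methylation was deposited by the authors as a fraction for each of the 2 sides of a table, with no coverage. The sides follow the order in which the table names give the groups: over 4032 regions with identical coordinates in both, the NHD13 sides differed by a median of 0.000119 percentage points, against 32.9 for the first sides. Peak lists and the region table of KO and AML were not used here.

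Counts were tested with edgeR 4.0.16 in R 4.3.3: TMM factors (0.798 to 1.25), filterByExpr, a mean per group over all 12 libraries with 8 residual degrees of freedom, the robust quasi-likelihood F test, two-sided, and Benjamini-Hochberg adjustment at 0.05 over the 16233 genes kept. The common biological coefficient of variation was 0.087. CPM are counts per tested-gene total times the TMM factor, given per library or as mean ± SD (n = 3), and log2 fold changes as estimate ± SE; depth is as given above, and floors cover counting error only. Code was tested on simulated data. Symbols with 2 or more identifiers were read from the one with the most counts. Coordinates and promoter windows are RefSeq, GRCm38.p6, the same build as mm10.

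Named genes were Setd2, S100a8 and S100a9; the 15 largest rises and the 15 largest falls with a group mean of 10 CPM or more, no overlap of the libraries and an official symbol; up to 4 members of each of the 27 lists by smallest p, or up to 2 where fewer passed; and Kit, Cd34, Flt3 and Ly6a. Other list members are named to describe their list and were picked after their values were seen. Alternatives were RLE, upper-quartile or no factors, no filter or 1 CPM in 3 libraries, DESeq2 1.42.0, the 6 compared libraries alone, a replicate block and leaving out each library. Some genes that the rule names are not reported here.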

Additional observations from a re-analysis of the deposited data

Results flagged for a closer look

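The Y-linked genes, which lie outside the genes compared, carried a signal in the KO libraries that WT lacked. The 5 tested Y-linked genes summed to 122.7 CPM in the lowest KO library and to under 0.1 CPM in the highest WT library. Ddx3y and Eif2s3y made up most of it, with 36.7 to 42.6 CPM and 57.6 to 63.6 CPM in KO. WT replicate 1 stood apart in the comparison of replicate counts given above. Beyond that, groups of 3 libraries were too small for a search for single outlying libraries.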

How the results depend on the processing

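Over the 14 alternatives the 4 counts of changed genes stayed within 1.5 times of the reported ones, except that with no composition factors 1201 genes rose in place of 2703 and 5468 fell in place of 3140. The same setting turned the Kit value to -0.19, a fall that passed, ended the calls of Cdc6, Cdc45, Rrm1 and mt-Cytb, and let Hoxb4 pass. Of 131 genes followed, 125 kept their side of the threshold under every alternative that tested them. Leaving out each library in turn gave 2389 to 2946 genes that rose and 2656 to 3184 that fell, and at 2-fold or more 479 to 517 and 1370 to 1444. DESeq2 called 3290 up and 2749 down, and 54.5% of its calls were increases. Replicate numbers did not pair the samples: same-numbered KO and WT libraries had correlations of their deviations from the group means of -0.0726, -0.0721 and 0.0568, and with the replicate number as a block 2596 genes rose and 3012 fell. Only the third KO library correlated best with the WT library of its own number. Depth limits genes near 0 in a group, whose fitted fold changes rest on few counts.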

Other observations

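Ddx4, an RNA helicase of germ cells (Vasa, chr13:112598333-112652633), read 5.61, 6.11 and 5.77 CPM in WT, 4.7, 5.51 and 3.36 CPM in NHD13 and 63.7, 54.2 and 48.8 CPM in KO. It was 9.52-fold above WT (3.25 ± 0.14, adjusted p = 3.65e-12 by edgeR) and 3.62 ± 0.15 above NHD13, with no overlap, while NHD13 and WT did not differ past the threshold (-0.37 ± 0.17, adjusted p = 0.0742). Hormad2, a meiotic chromosome axis gene on chromosome 11, picked after its values were seen, read 3.6, 3.9 and 3.81 CPM in WT, 3.78, 3.3 and 2.67 CPM in NHD13 and 15.5, 13.2 and 14.2 CPM in KO (1.92 ± 0.14 over WT and 2.14 ± 0.15 over NHD13). As the KO libraries are also the ones with Y-linked reads, the effect of sex on either gene cannot be told apart from that of the KO label.

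Afap1, an actin filament-associated protein gene on chromosome 5, picked after its values were seen, read 17.2, 17.1 and 12.9 CPM in WT, 36.4, 38.4 and 36.3 CPM in NHD13 and 0.58, 1.14 and 0.522 CPM in KO, so NHD13 was above WT (1.23 ± 0.13) and KO 20.1-fold below it (-4.33 ± 0.20). Changed genes were spread over all autosomes: the share that rose ran from 15.5% on chromosome 12 to 21.3% on chromosome 10, and the share that fell from 16.4% on chromosome 10 to 24.6% on chromosome 6. Gene length differed little between the classes, with medians of 3686.5 bases for genes that fell, 3765 for those that rose and 3457.5 for the rest.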
